A study of Mus musculus with 12 samples.

Results

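Arc, the activity-regulated cytoskeleton-associated protein gene, was followed as 1 of the 24421 genes counted in polyribosomal RNA of the mouse hippocampus. It was taken as the row of that symbol in each of the 12 libraries. The libraries came from C57/Bl6 mice aged 6 weeks and carry 2 group labels, control (6 libraries) and fear case (6 libraries). No transgene or other genetic change is named in the labels. For all 12 libraries the protocol gives the same course, with 2 days of single housing, 8 min in an unfamiliar context, 7 min in the home cage and collection of the tissue at 15 min. How the control mice were handled is not given in the labels, nor is a foot shock mentioned. The title speaks of a new context, while the design text and the group label speak of fear.

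Arc is a classic effector immediate early gene. Synaptic activity switches its transcription on within minutes through serum response factor, MEF2 and CREB, and its mRNA travels into dendrites and is translated near active synapses. Arc protein binds endophilin and dynamin and speeds the removal of AMPA-type glutamate receptors from the synapse. The gene descends from a retrotransposon Gag gene, and the protein can assemble into capsid-like shells. Arc mRNA is also known to carry introns in its 3′ untranslated region, which make it a substrate of nonsense-mediated decay after translation. In the hippocampus Arc is widely used to mark excitatory neurons that were active during an experience such as exploration of a new place.

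In the GRCm38 annotation (GENCODE vM21, the assembly of mm10), Arc occupies bases 74669083 to 74672570 of chromosome 15, on the minus strand. Of its 2 annotated transcripts, Arc-201 has 3 exons, and the merged exons of the gene cover 3057 bp. The whole coding sequence of 1188 bases before the stop codon, or 396 codons, lies in exon 1, which runs from 74670565 to 74672568 in the transcript Arc-201. Downstream of the stop codon (74671182 to 74671184) exon 1 continues for 617 bases, and the 2 introns of 245 and 186 bases lie beyond it, inside the 3′ untranslated region. No other annotated gene has an exon over an exon of Arc (0 genes). The count therefore pools coding and untranslated reads of 1 locus and cannot tell spliced from intron-retaining transcripts.

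Arc was higher in every fear case library than in any control. In control 1 to 6 it stood at 81.6, 93.6, 71.4, 75.5, 96.6 and 107 CPM (gene counts scaled to one megaread of TMM-corrected library size). The fear case values, in the same order, were 197, 153, 146, 149, 125 and 145 CPM. The groups did not overlap, and the lowest fear case library, number 5, lay 18.0 CPM above the highest control, number 6. Fear case 1 was the highest library of all, while fear case 2, 3, 4 and 6 lay close together. The group means were 87.6 ± 13.6 CPM in control and 153 ± 24.0 CPM in fear case (SD, n = 6 each).

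With edgeR's quasi-likelihood test across 14564 genes, Arc rose by 0.80 on the log2 scale (SE 0.10), or 1.74-fold, with a Benjamini-Hochberg adjusted p of 0.000356. All 6 of 6 fear case libraries showed this direction. Across the genes tested, 15 passed at an adjusted p under 0.05, or 0.103%, of which 7 (0.0481%) were higher and 8 (0.0549%) lower in fear case. That split was 7 higher and 26 lower without TMM, and 6 higher and 3 lower with neuronal marker counts as library size. It was 12 higher and 116 lower without fear case 6, and 14 higher and 140 lower with log10 gene counts as a covariate. With marker scores as covariates it was 5 higher and 0 lower for choroid plexus and 7 higher and 0 lower for striatum. Genes with all 6 fear case libraries above all 6 controls numbered 39, or 0.268%. An input sample was not analysed here, so the rise holds for RNA that pelleted through the sucrose cushion and is not split into transcript amount and ribosome loading. In RNA from whole tissue, fewer cells of a type and less RNA per cell cannot be told apart.

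**Figure D1:**
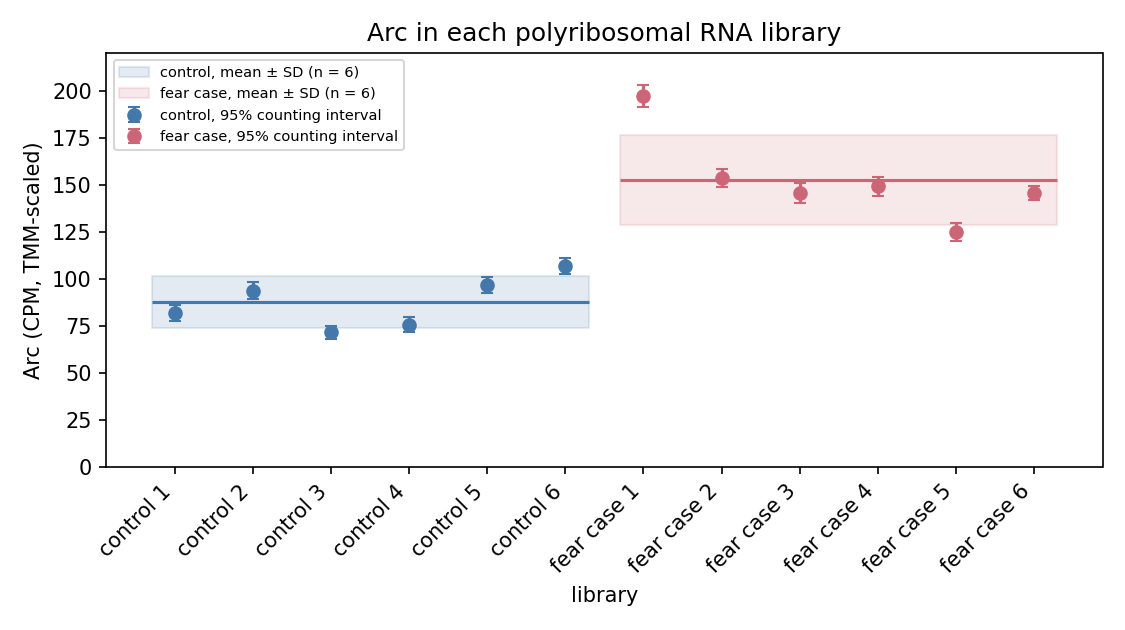
Arc in each library as TMM-scaled CPM (vertical axis) by library (horizontal axis). Points carry exact Poisson 95% counting intervals, and lines with shading give the group mean ± SD (n = 6); control libraries reach 107 CPM at most and fear case libraries start at 125 CPM.

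The rise was large against both the counting error and the spread between libraries. Arc was covered by 1502 to 2199 reads in the controls and 2767 to 5838 reads in fear case, which gives a counting error of 1.31% to 2.58% per library. The coefficient of variation between libraries was 15.6% in control and 15.7% in fear case, so most of the spread within a group was not counting error. The biological coefficient of variation that edgeR estimated for Arc was 12.7%, against 9.98% on the trend for genes of its abundance. Of the 1510 genes within 0.5 log2 units of its average level (itself included), 94.2% had a lower estimate. Arc thus varied more between libraries of a group than most genes of like abundance.

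The rank of Arc moved in parallel. Ranked by count among all 24421 genes in each library, with 1 as the gene with most reads, Arc held place 2824, 2505, 3216, 3024, 2394 and 2215 in control 1 to 6. In fear case 1 to 6 it held place 1030, 1392, 1542, 1494, 1834 and 1563. No rank of one group fell inside the range of the other. The mean rank was 2696 ± 388 in control and 1476 ± 263 in fear case (SD, n = 6 each; exact two-sided permutation test over 924 relabellings, p = 0.00216, the smallest this design can give). A rank by reads favours long transcripts. Per kilobase of merged exon, among the 23334 genes with an unambiguous length, the mean rank was 1593 ± 276 in control and 811 ± 144 in fear case (exact permutation p = 0.00216), again without overlap.

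Sorted by group mean, Arc held position 2662 of 24421 by CPM in control, between Cops8 and Gpd1, and position 1449 in fear case, between Med13l and Ppp1r13b. Those levels were less than 0.2 CPM apart from that of Arc. On the scale of CPM per kb, Arc stood at position 1552 of 23334 in control, between Mgea5 and Stim2, and at position 789 in fear case, between Gm17821 and Guk1.

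**Figure D2:**
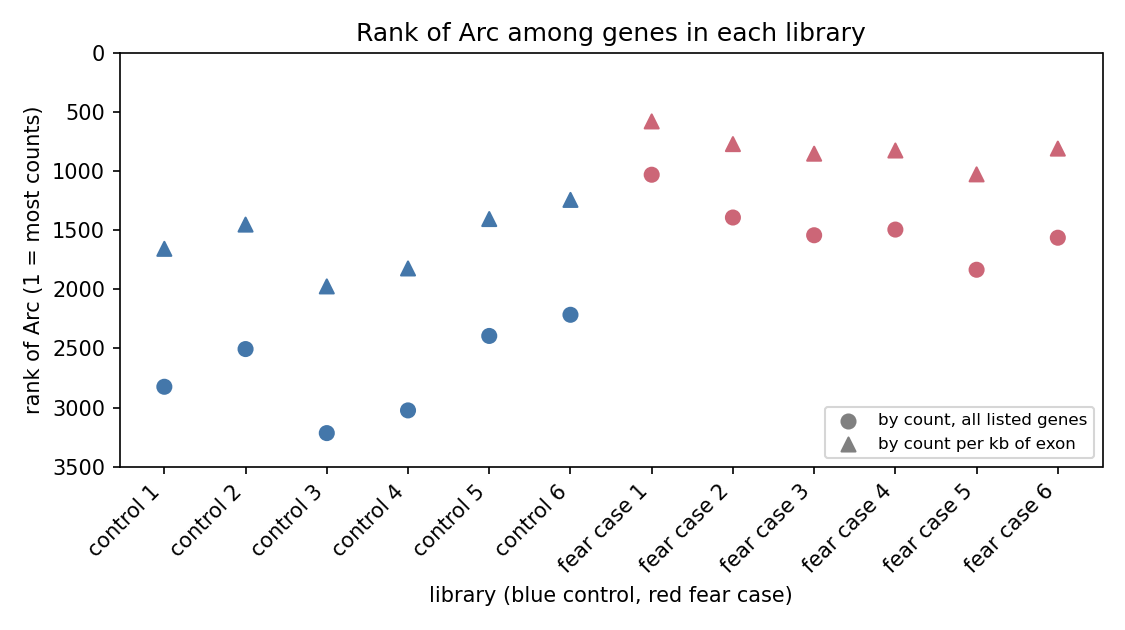
Rank of Arc among genes (vertical axis, inverted, 1 = most counts) in each library (horizontal axis; blue control, red fear case). Circles rank by count over all listed genes and triangles by count per kb of merged exon; on both scales every fear case library ranks Arc ahead of every control, for example 1834 at the latest in fear case against 2215 at the earliest in control.

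Arc was compared with Fos, Npas4, Fosb, Btg2 and Junb, the immediate early genes that earlier results of these data had called. Their own rises and their ratios to Arc are therefore given as description. The ratio tests used the same 12 libraries in which these genes had been called, so their p-values can be too small. Fos and Fosb encode AP-1 subunits, Npas4 a neuron-specific activity-dependent transcription factor, Btg2 an antiproliferative regulator of mRNA decay and Junb a further AP-1 subunit. Egr1, a zinc-finger transcription factor gene, was added beside them. Fos and Npas4 had larger folds than Arc, and for the other 3 called genes no difference from Arc passed the test.

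In control 1 to 6 Fos stood at 2.29, 4.09, 3.45, 4.07, 6.83 and 5.53 CPM. Its values in fear case 1 to 6 were 33.7, 16.9, 21.6, 19.9, 12.1 and 21.2 CPM. Fear case 1 was the highest and fear case 5 the lowest fear case library, as for Arc. The log2 ratio of Fos to Arc was -4.36 ± 0.43 in control and -2.92 ± 0.30 in fear case (SD, n = 6 each), a difference of 1.44 (exact two-sided permutation test, p = 0.00216, adjusted p = 0.00541 over 5 genes).

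Npas4 ranged from 3.87 CPM (control 4) over a median of 4.93 to 7.23 CPM (control 6) and, in fear case, from 17.5 CPM (number 3) over a median of 19.6 to 28.9 CPM (number 1). The log2 ratio of Npas4 to Arc rose by 1.26, from -4.10 ± 0.17 to -2.84 ± 0.18 (n = 6 each; exact permutation p = 0.00216, adjusted p = 0.00541). As a description of these libraries, the ratios of Fos and Npas4 to Arc were higher in all 6 of 6 fear case libraries than in any control.

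Junb lay nearest to Arc in fold. Its control libraries 1 to 6 held 32.6, 32.8, 29.6, 32.0, 44.4 and 42.1 CPM. The fear case libraries held 77.8, 55.3, 59.7, 58.9, 56.7 and 60.0 CPM, all above the controls and with number 1 highest. Its log2 ratio to Arc was -1.30 ± 0.13 in control and -1.31 ± 0.11 in fear case, a difference of -0.0083 (exact permutation p = 0.881, adjusted p = 0.881), and its sign turned when control 4, control 5 or fear case 2 was left out. One short annotated exon of Junb lies over an exon of Prdx2 on the other strand, and the strand setting of the counting is not known.

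For Btg2 the difference from Arc was 0.086 (adjusted p = 0.695) and for Fosb 0.20 (adjusted p = 0.245), by the same exact permutation test with n = 6 per group. A p above the threshold does not show that the folds of Junb, Btg2 and Fosb equal that of Arc. Without fear case 3 the Fosb difference was 0.28 with an adjusted p of 0.0361 by the exact test. Btg2 differed from Arc in another way, with control libraries in a tight band of 13.4 to 15.2 CPM and fear case libraries from 20.7 to 33.1 CPM, led by number 6 and not by number 1.

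**Figure D3:**
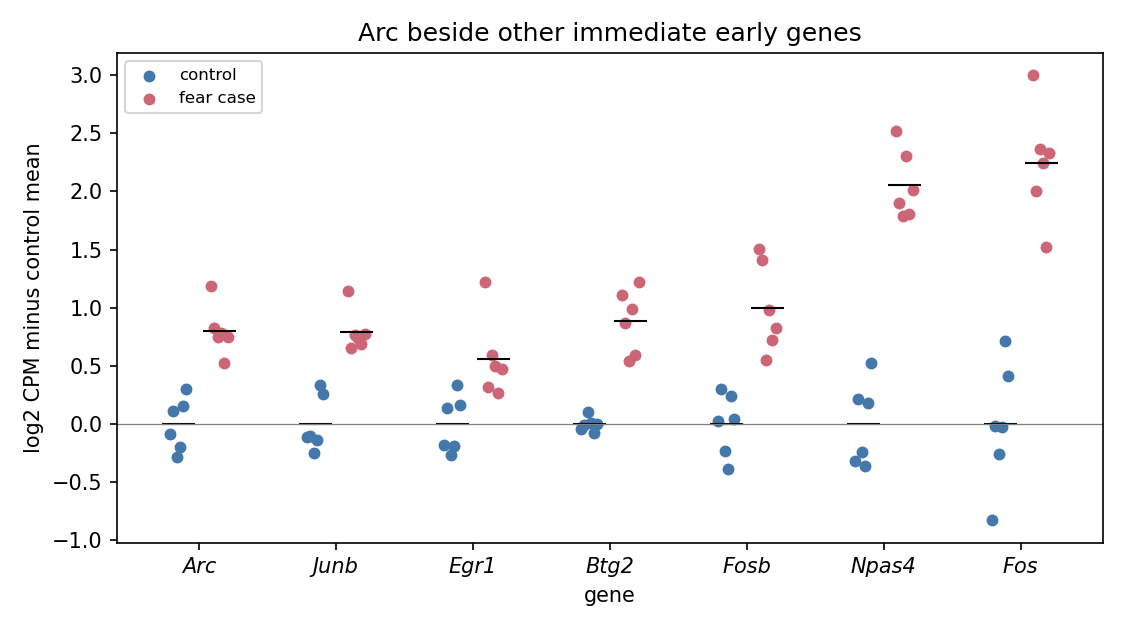
Log2 CPM of each library minus the control mean of that gene (vertical axis) for Arc and 6 other immediate early genes (horizontal axis), with group means as black lines. Fear case means stand higher for Fos and Npas4 than for Arc; fear case 1 is the top point for each gene except Btg2.

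In level rather than fold the order was different. Levels were compared per kilobase of merged exon. In control, Arc stood at 28.6 ± 4.46 and Egr1 at 28.2 ± 4.81 CPM per kb, which do not differ beyond their spread. Next came Junb at 15.5 ± 2.65, Btg2 at 5.16 ± 0.23, Fos at 1.86 ± 0.68, Npas4 at 1.24 ± 0.32 and Fosb at 0.90 ± 0.16 CPM per kb (SD, n = 6). In fear case, Arc led with 49.9 ± 7.85 CPM per kb, followed by Egr1 at 42.2 ± 11.5, within the spread of Arc, and by Junb at 26.7 ± 3.58. Btg2 reached 9.70 ± 1.81, Fos 8.88 ± 3.06, Npas4 5.17 ± 1.12 and Fosb 1.84 ± 0.50 CPM per kb. The order per kb rests on merged exon lengths, 3057 bp for Arc and 4484 bp for Egr1. The annotation used for the counting is not given. By CPM without that division, the mean of Egr1 stood above that of Arc in both groups. Egr1 held 126 ± 21.6 CPM against 87.6 ± 13.6 CPM for Arc in control, and 189 ± 51.5 against 153 ± 24.0 CPM in fear case.

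Among these genes the gain in mean level was largest for Arc in all libraries together, as a description without a test between genes. It amounted to 65.0 CPM or 21.3 CPM per kb. Egr1 gained 62.8 CPM, and its gain in CPM passed that of Arc when control 5 was left out (69.0 against 66.8) or fear case 2 was (69.5 against 64.8), while per kb the gain of Arc was the larger whichever of the 12 libraries was left out. Junb gained 25.8 CPM or 11.2 CPM per kb. Fos gained 16.5 CPM or 7.02 CPM per kb. Of the 7 genes called higher, 1 had a larger gain than Arc on either scale, the abundant nuclear long noncoding RNA Malat1. The call of Malat1 was not firm: it ended without control 1, 2, 3 or 4 or fear case 2 or 5 (6 of 12 fits, adjusted p from 0.0601 to 0.0871 by edgeR). It also ended with neuronal marker counts as library size (adjusted p = 0.0680), with the choroid plexus score (0.388) and with the ependyma score (0.922). Over all genes tested, called or not, Arc was number 37 of 14564 by gain in CPM and number 16 of 14001 per kb. The 5 largest gains in CPM belonged to Malat1, Rn45s, Lars2, Mir6236 and Map1b, and of these only Malat1 was called, within the limits just given.

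Genes whose pattern over the 12 libraries lay nearest to that of Arc were sought by the root mean square distance between log2 CPM values, each centred on the mean of its gene. Over the 13503 genes whose mean reached 1 CPM the median distance was 0.49, and a gene with no variation at all would lie 0.45 from Arc. The nearest gene was Junb at 0.11, followed by Egr1 at 0.18. These were the 2 genes closer than 0.2. Fosb (0.23), Btg2 (0.23), Gadd45b (0.24), Nr4a1 (0.24), Malat1 (0.25) and Egr4 (0.26) came next. Gadd45b is a stress- and activity-responsive gene linked to DNA demethylation in neurons, Nr4a1 encodes an orphan nuclear receptor and Egr4 a relative of Egr1. Of these 8 nearest genes, 7 are known immediate early genes and Malat1 is not. The nearest of so many genes are close by selection, and these distances carry no test.

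Within the groups, Arc was related to Fos, Npas4, Fosb, Btg2, Junb and Egr1 over 6 libraries at a time. This makes 12 relations, each with an exact permutation test over 720 pairings. None passed at an adjusted p under 0.05 (0 of 12), and the lowest adjusted p of Pearson's r was 0.0972. Among controls, r was 0.93 with Npas4 (exact p = 0.0236, Spearman's rho 0.77) and 0.89 with Egr1 (exact p = 0.0403, rho 0.94). Without control 3 and control 5, the libraries farthest from the Egr1 median, r was 0.93, and without control 4 and control 6 it was 0.86 for Npas4. Among fear case libraries, r was 0.91 with Fos (exact p = 0.0597, rho 0.49) and 0.90 with Egr1 (exact p = 0.0486, rho 0.60). Both rested on fear case 1 and fear case 5, since r was -0.98 for Fos and -0.86 for Egr1 in the other 4 libraries. For Btg2, r was -0.59 in control and 0.56 in fear case, and for Fos it was 0.63 in control. Fosb gave 0.75 in control and 0.76 in fear case, Junb 0.85 and 0.86, and Npas4 0.80 in fear case. Without the libraries farthest from the median of the other gene, r for Fosb was 0.13 in control and 0.29 in fear case. Left out likewise, r was 0.45 for Npas4 in fear case and 0.89 for Fos in control. For Btg2 it was then 0.12 in control and 0.14 in fear case, and for Junb 0.79 and 0.89. Spearman's rho for Junb in fear case was 0.20.

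Genes on either side of Arc were examined next. The 4 nearest tested genes on each side by gene start were Slc45a4, Ptp4a3, Mroh5 and Adgrb1 at lower coordinates and Jrk, Them6, Lynx1 and 2010109I03Rik at higher ones. Adgrb1, which encodes the adhesion receptor BAI1, starts 156 kb from Arc and stood at 156 ± 20.3 CPM in control and 148 ± 7.56 CPM in fear case (edgeR's log2 fold change -0.068, SE 0.077, adjusted p = 0.885). Jrk starts 37.0 kb away and stood at 13.0 ± 1.29 and 12.8 ± 2.93 CPM (adjusted p = 0.989 by edgeR). Lynx1, which encodes a prototoxin-like modulator of nicotinic receptors, starts 80.5 kb away and stood at 272 ± 17.7 and 264 ± 30.3 CPM (adjusted p = 0.937 by edgeR). Of the 8 neighbours 0 passed, where 0.103% of all genes did, so the count says little about these genes. The lowest unadjusted p was 0.0694, for Ptp4a3. The sign of 7 of the 8 turned in at least 1 alternative setting, all but Slc45a4.

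Genes known to act with Arc were grouped into lists and described by how many members were called (background 0.103% of all genes tested, either direction). All 25 transcription regulators of Arc were tested, and 1 rose, Npas4, while 24 did not pass. Egr1, which can act on the Arc promoter, ranged from 104 to 157 CPM in control and from 150 to 290 CPM in fear case, so the groups overlapped, and edgeR gave 0.58 on the log2 scale (SE 0.13, adjusted p = 0.108). Egr1 did pass without a filter (adjusted p = 0.0284), without fear case 6 (0.0297), with log10 gene counts as a covariate (0.04996) and with the excitatory neuron score (0.0468), all by edgeR. Mef2a, of the MEF2 factors that bind the Arc enhancer, stood at 262 ± 19.1 and 296 ± 27.4 CPM (adjusted p = 0.597). Nelfe, a subunit of the complex that pauses RNA polymerase, stood at 24.5 ± 1.73 and 21.3 ± 2.22 CPM (adjusted p = 0.642). The serum response factor cofactor gene Mkl2, the most abundant member, had an adjusted p of 0.742. The median log2 fold change of the list was 0.0018, against -0.0046 over all genes tested.

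Of the 22 receptors and kinases upstream of Arc, which lead from glutamate, BDNF, acetylcholine and dopamine signals to transcription, 0 passed and the median log2 fold change was 0.0041. Map2k2, which encodes a kinase of the MAP kinase cascade, stood at 108 ± 9.09 CPM in control and 97.2 ± 8.55 CPM in fear case (adjusted p = 0.662 by edgeR). The metabotropic glutamate receptor gene Grm5 stood at 248 ± 34.7 and 277 ± 37.0 CPM (adjusted p = 0.756).

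Among 34 genes of Arc mRNA transport, translation and decay, 0 passed, and the median was 0.023. Stau2, which encodes a dendritic RNA-transport protein, stood at 132 ± 11.1 and 147 ± 7.51 CPM (adjusted p = 0.601 by edgeR). The nonsense-mediated decay gene Upf2 had a log2 fold change of 0.14, and Upf1, the helicase of that pathway, of -0.15 (adjusted p = 0.627 and 0.698 by edgeR). At an unadjusted p under 0.05 there were 3 higher and 1 lower member, against 7.14% of all genes in either direction.

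The partners of Arc protein did not pass either. Of 25 genes of AMPA receptors and clathrin endocytosis 0 were called (median 0.025). Gria2, the receptor subunit gene that sets calcium permeability, stood at 620 ± 71.5 and 700 ± 116 CPM (adjusted p = 0.742 by edgeR), and Gria3 at 144 ± 15.7 and 161 ± 24.8 CPM (adjusted p = 0.747). The dynamin gene Dnm1, the most abundant member, stood at 1399 ± 173 and 1413 ± 131 CPM. Of 17 postsynaptic and nuclear partners 0 were called (median -0.013). Camk2a, whose kinase is the most abundant protein of the postsynaptic density, stood at 2502 ± 169 and 2478 ± 73.0 CPM (adjusted p = 0.982). Of 13 genes of Arc protein turnover and SUMO conjugation 0 were called (median 0.022), and the ubiquitin ligase gene Ube3a stood at 206 ± 22.4 and 223 ± 23.5 CPM (adjusted p = 0.798).

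Other genes that descend from a Gag gene were examined beside Arc. Of 21 such genes 19 were tested and 0 were called, with a median of 1.7e-06. The most abundant was Pnmal2, of the PNMA family, at 415 ± 62.3 and 419 ± 47.2 CPM (adjusted p = 0.986 by edgeR). Zcchc18 stood at 223 ± 14.7 and 207 ± 18.4 CPM (adjusted p = 0.769), and Zcchc5, a gene of few reads, at 4.92 ± 1.84 and 3.44 ± 1.35 CPM (adjusted p = 0.742).

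Immediate early genes were split into 25 effectors, whose products act directly on the cell, and 25 regulators of transcription and mRNA decay, and 24 of each were tested. These members were listed with results of these data known. Of the regulators 5 rose, those compared above, and 0 fell, against 0.0481% of all genes called higher. The call of Fosb ended with the choroid plexus score (adjusted p = 0.388) and with the striatum score (0.0973), and all 5 calls ended with the ependyma score (edgeR). More regulators passed in some alternatives, 7 with DESeq2 or the excitatory neuron score and 8 without a filter, without fear case 6 or with log10 gene counts. With the striatum score 5 passed, Fosb not among them. Ier2 had a log2 fold change of 0.96, with all 6 fear case libraries above all controls (adjusted p = 0.0672 by edgeR). For Egr2 it was 1.63 (adjusted p = 0.141 by edgeR). The median of the regulators was 0.13. Of the effectors 0 were called, and their median was 0.052. Effectors did pass in some alternatives: Dusp1 and Gadd45b with DESeq2 (adjusted p = 0.00650 and 0.0412) and without fear case 6 (0.0363 and 0.0479 by edgeR). Dusp1 also passed without a filter (0.0373) and without control 6 (0.0372), and Gadd45b with log10 gene counts (0.0384). At an unadjusted p under 0.05, 11 regulators and 6 effectors were higher, against 2.62% of all genes. Dusp1, a MAP kinase phosphatase gene, stood at 8.55 ± 2.37 and 14.4 ± 2.92 CPM (adjusted p = 0.108 by edgeR). Gadd45b stood at 7.96 ± 1.73 and 11.9 ± 1.49 CPM, with all 6 fear case libraries above all controls (adjusted p = 0.189). Cyr61, a matricellular signalling gene, stood at 0.77 ± 0.39 and 2.02 ± 0.65 CPM (adjusted p = 0.251).

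Synaptic effectors that are usually named beside Arc did not pass. Homer1, a postsynaptic scaffold gene, stood at 216 ± 18.2 CPM in control against 236 ± 14.8 CPM in fear case libraries (adjusted p = 0.742 by edgeR), with all of its isoforms in 1 count. Nptx2, a secreted pentraxin gene that clusters AMPA receptors, stood at 18.7 ± 3.39 and 18.1 ± 3.24 CPM (adjusted p = 0.970). Bdnf, the neurotrophin gene, stood at 34.6 ± 3.76 and 36.7 ± 2.87 CPM (adjusted p = 0.859). Whether their folds differ from that of Arc was not tested.

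**Figure D4:**
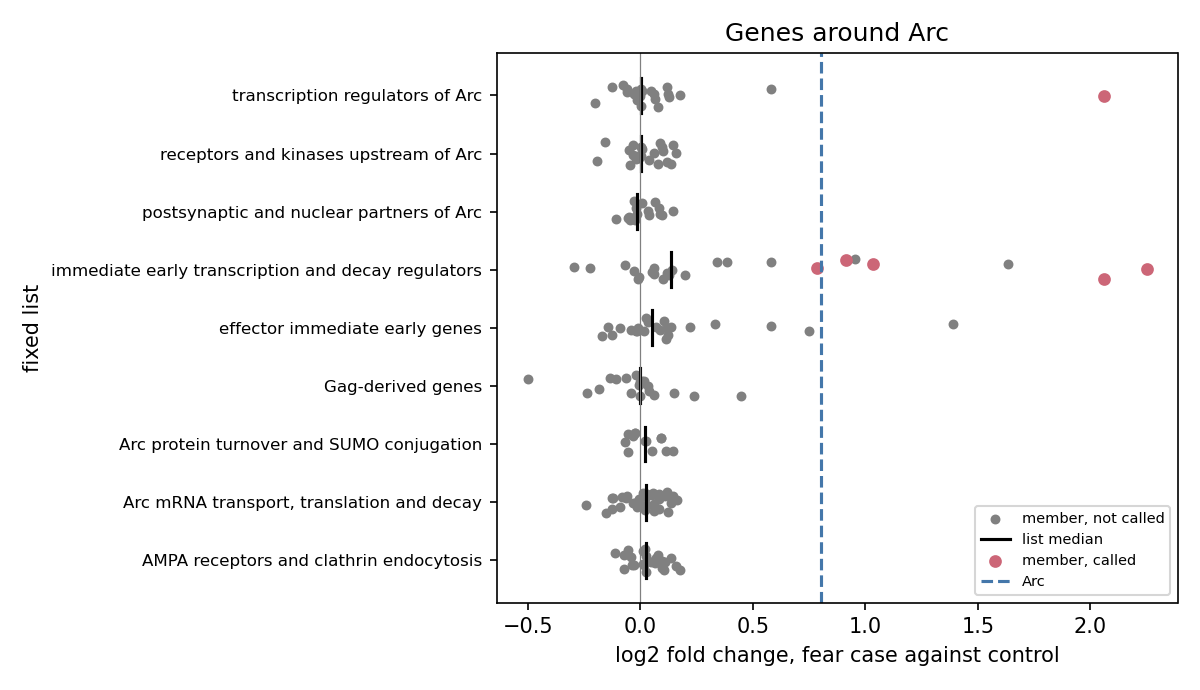
Log2 fold change of fear case against control (horizontal axis) for every tested member of 9 lists (vertical axis). Red points were called by edgeR, black bars are list medians and the dashed line is Arc at 0.80; red points appear in 2 lists and most other members lie within 0.5 of 0.

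The make-up of the libraries moved with the groups in 3 of 13 marker lists. Gene counts per library ranged from 18569864 to 44218896, with fear case 6 the deepest. That library also had the highest share of Rn45s, 12.5% of gene counts against 4.55% to 7.98% in the others. Its TMM factor was the lowest, 0.908 against 0.971 to 1.03. Excitatory neuron markers, which mark the cells known to express Arc, summed to 5563 to 6157 CPM in control and 5057 to 5977 CPM in fear case. Hippocampal subfield markers summed to 558 to 743 and 583 to 707 CPM. Cortex markers, from a region where Arc is also strong, summed to 303 to 374 and 313 to 349 CPM. In each of these lists all members were detected and the groups overlapped. The 10 choroid plexus markers summed to 754 to 2173 CPM in control and 24.1 to 1481 CPM in fear case (exact permutation p = 0.0108, adjusted p = 0.0469 over 13 lists, n = 6 each). The 5 ependyma markers found, of 6, summed to 37.2 to 47.1 and 24.6 to 31.4 CPM, and the 9 striatum markers to 107 to 131 and 76.1 to 103 CPM (exact permutation p = 0.00216, adjusted p = 0.0141 each). Single genes carried much of the striatum and choroid plexus sums. Ppp1r1b, the 1 striatum marker called lower, averaged 68.3 CPM in control and 40.2 CPM in fear case, and without it the list summed to 42.4 to 63.8 and 38.6 to 54.8 CPM, which overlap. Ttr averaged 1120.5 and 325 CPM, and the other 9 choroid plexus markers summed to 113 to 197 and 16.7 to 163 CPM. Without Rsph1, its most abundant member, the ependyma list summed to 25.6 to 30.9 CPM in control and 18.0 to 21.2 CPM in fear case. These ranges do not overlap. No marker found of these 3 lists was at 0, and in the blood list 4 haemoglobin genes were listed at 0.

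Beside these differences, the log2 fold change of Arc was 0.80 (SE 0.14, adjusted p = 0.0207 by edgeR) once the choroid plexus score entered the fit and 0.77 (SE 0.13, adjusted p = 0.0199) with the striatum score. It was 0.75 (SE 0.091, adjusted p = 0.00016) with the excitatory neuron score. With the ependyma score it was 0.88 with an SE of 0.26, and the call ended (unadjusted p = 0.00250, adjusted p = 0.922). No gene was called in that fit (0 of 14564, with 732 at an unadjusted p under 0.05). The ependyma scores of the groups do not overlap, and 82.9% of the variance of that score lies between the groups, so in that fit group and ependyma markers cannot be told apart. The share between groups was 49.4% for the choroid plexus, 37.0% for the striatum and 4.44% for the excitatory neuron score. The choroid plexus and striatum fits thus separate group from markers only in part. Without fear case 6, the fear case library with the most choroid plexus RNA, Arc rose by 0.81 (SE 0.11, adjusted p = 0.000121).

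**Figure D5:**
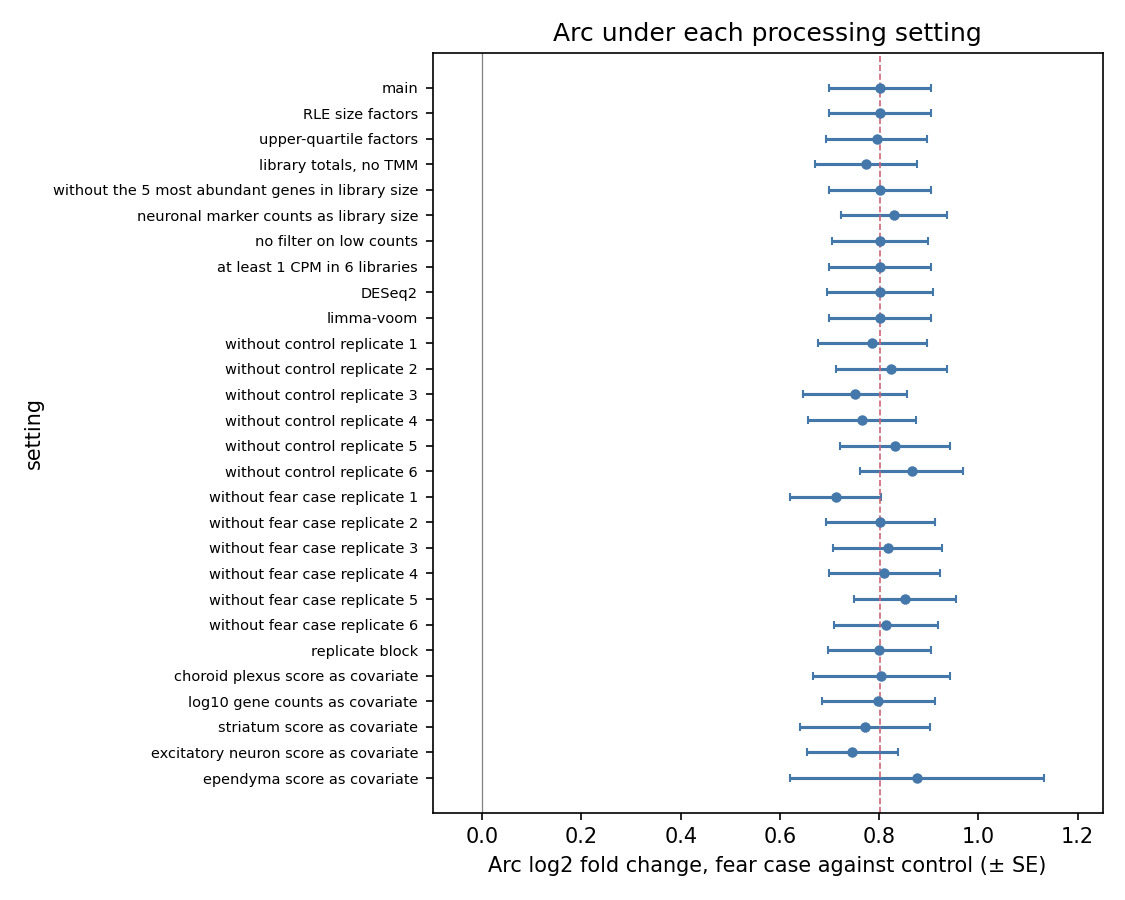
Log2 fold change of Arc, fear case against control, with its standard error (horizontal axis) under each processing setting (vertical axis). The dashed line marks 0.80; all settings lie between 0.71 and 0.88, and the ependyma covariate has the widest error at 0.26.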

How the data were processed

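Polyribosomal RNA was pelleted through a 1 molar sucrose cushion for 4 h and sequenced as 40 bp read pairs, per the labels' protocols. The authors deposited whole-number counts per gene symbol for each library, not normalized. As tools, cutadapt, TopHat, Bowtie and HTSeq appear with the build mm10 in the submitters' processing notes. For versions, annotation and strand setting the sources used here give nothing. The counter's summary lines were left out of library sizes; lines for no feature held 25.5% to 33.3% and ambiguous lines 0.453% to 0.550%. Totals were 18569864 to 44218896, so 1 CPM is at least 18.6 counts.

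The main test used edgeR 4.0.16 under R 4.3.3: filterByExpr (minimum count 10, total 15), TMM, quasi-likelihood test of fear case against control without covariates, Benjamini-Hochberg over 14564 genes, calls at 0.05. SE is the log2 fold change over the square root of F. Log2 CPM used a prior count of 2. Ranks, ratios to Arc, relations and marker sums were tested by exact two-sided permutation. Alternatives used DESeq2 1.42.0, limma 3.58.1 and other scalings, filters, covariates and left-out libraries. On simulated data the test recovered 72% of genes changed 1.5-fold and 78% of those changed 2-fold among 14564 genes, with 12 unchanged genes called. There, 50 genes were changed at each of 1.5-, 2-, 3- and 4-fold, all with a mean above 1 CPM. That is more changed genes than the 15 called here, which eases the adjusted threshold. Recovery in these data may therefore be lower. Symbols were matched to GENCODE vM21 (23376 of 24421).

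Arc and all lists were chosen with earlier results of these data known. Named genes are Arc; Fos, Npas4, Fosb, Btg2, Junb, Egr1, Homer1, Nptx2, Bdnf and Malat1; called members, the 4 lowest p and the most abundant member of each list; the 8 nearest patterns; 8 neighbours; genes next to Arc in level; the 5 largest gains; and the most abundant marker per list. Not every gene so taken is described, and some are not reported here. The labels number libraries within each group without naming separate mice, so each p-value reflects only how these samples spread, which may be technical. Counting intervals are exact Poisson at 95% and cover counting error only.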

Additional observations from a re-analysis of the deposited data

Results flagged for a closer look

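In 76 groups of 6 libraries the highest or lowest library was compared with its neighbour, and 8 stood apart by a gap that, as a share of the range of the group, exceeded Dixon's 95% critical value, where chance gives about 1 in 20 groups. Fear case 1 stood above the other fear case libraries in 4 genes whose pattern lies near that of Arc, with log2 CPM of 6.28 for Junb, 8.18 for Egr1, 5.80 for Nr4a1 and 4.89 for Egr4. It was the highest library for Arc as well, but there its gap was under that limit. These 4 flags share 1 library and are not independent.

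Control 3 was low in Gadd45b (log2 CPM 2.25, next lowest 3.00). Control 1 was high in summed astrocyte markers (2157 CPM, next 1784 CPM) and control 6 in summed cortex markers (374 CPM, next 326 CPM). Fear case 6 was high in summed choroid plexus markers (1481 CPM, next 406 CPM).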

How the results depend on the processing

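Arc kept its direction in all 27 alternatives and its call in 26 of them, with log2 fold changes from 0.71 to 0.88; the call ended with the ependyma score as a covariate (0.88). With one library left out its lowest value was 0.71 when fear case 1 was left out and its highest 0.87 when control 6 was, with adjusted p from 0.000121 to 0.00206. The rank difference (fear case minus control) of -1221 ranged from -1317 to -1117 with one library left out and was -782 per kb. Its exact permutation p was 0.00216 each time, the smallest possible. As the groups do not overlap in rank, leaving a library out could not change that p. Ranks among tested genes were the same as among all genes, so that setting adds nothing. Mean Arc CPM was 83.7 to 90.8 in control and 144 to 158 in fear case with one library left out, and 88.4 and 151 without TMM.

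The difference from Arc ranged from 1.30 to 1.55 for Fos, 1.20 to 1.30 for Npas4, 0.12 to 0.28 for Fosb, 0.0080 to 0.16 for Btg2 and -0.0504 to 0.0274 for Junb with one library left out. The count of genes called was 33 without TMM, 9 with neuronal markers as library size, 37 without a filter, 63 with DESeq2, 5 with the choroid plexus score, 154 with log10 gene counts as a covariate, 7 with the striatum, 52 with the excitatory neuron and 0 with the ependyma score, and 9 to 128 with one library left out (9 without control 3 or fear case 2, 128 without fear case 6). The count of called list members, 5, was 9 without a filter, with DESeq2 or with log10 gene counts, 0 with the ependyma score, and 5 to 10 with one library left out. Of the 8 neighbours 0 passed in every alternative.

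Nothing in the labels says that numbers 1 to 6 pair libraries across the groups. Same-numbered libraries had correlations of deviations from -0.17 to 0.047, and 2 of the 6 numbers correlated best with themselves. Such values cannot show whether same-numbered libraries were handled together. With the replicate block Arc stood at 0.80 on the log2 scale (adjusted p = 0.00508 by edgeR) and 18 genes were called.

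Among genes named that were not called, 21 changed sign in at least one setting, at adjusted p of 0.734 or more; the cause was not tested. With the ependyma score the log2 fold changes were -0.25 for Grin2a, -0.18 for Grm5, -0.15 for Gria3, -0.10 for Gria2, 0.0087 for Jrk, 0.0551 for Cxx1b, 0.0621 for Map2k2, 0.0689 for Clta, 0.0852 for Ptp4a3, 0.10 for Zcchc18 and 0.23 for 2010109I03Rik. With log10 gene counts the log2 fold changes were -0.0283 for Pnmal2, -0.0151 for Pias2, 0.00082 for Cxx1b, 0.0164 for Camk2a, 0.0232 for Them6 and 0.14 for Jrk. With the striatum score the log2 fold changes were -0.0302 for Dnm1, -0.00077 for Pnmal2, 0.0020 for Lynx1, 0.0234 for Adgrb1, 0.0281 for Kif5a and 0.24 for Nptx2. With the choroid plexus score the log2 fold changes were -0.26 for Mroh5, 0.0516 for Kif5a and 0.0597 for Nptx2. With the excitatory neuron score the log2 fold changes were -0.0362 for Pnmal2 and -0.0167 for Dnm1. Without TMM the log2 fold changes were -0.0150 for Dnm1 and -0.0132 for Pnmal2. With neuronal marker counts as library size the log2 fold changes were 0.0012 for Jrk and 0.0169 for Camk2a. With one library left out, ranges that crossed 0 were -0.11 to 0.0021 for Adgrb1, -0.0405 to 0.0143 for Camk2a, -0.0370 to 0.0608 for Dnm1, -0.13 to 0.0671 for Jrk, -0.0884 to 0.0036 for Lynx1, -0.0263 to 0.31 for Mroh5, -0.12 to 0.0386 for Nptx2, -0.0459 to 0.0695 for Pnmal2 and -0.18 to 0.0102 for Them6. Without TMM the medians of 6 lists with positive medians, all but the immediate early ones, were negative, from -0.033 to -0.0072.

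Scores of marker lists used as covariates, apart from the choroid plexus score, were added after the data were examined. Depth sets a counting error of at most 2.58% for Arc.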
